A study of Homo sapiens with 6 samples.

Results

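The collagen genes were taken as every gene whose symbol is COL, a number, A and a number. There were 44 of them among the 60609 genes counted, on 17 chromosomes. Human K562 cells that carried an EP400 unable to hold TRRAP were compared with cells that carried complete EP400. Of 26 collagen genes tested 14 (53.8%) rose in the former, where 16.2% of all genes tested rose. For 4 of the rises the WT mean was under 5 normalized counts. Another 2 (7.69%) fell, near the 6.34% of all genes that fell. COL1A2 rose from 5 reads in all WT libraries together to 2622 in all Delta-TRRAP libraries, with mean normalized counts of 1.63 and 868. COL4A5 rose 6.97-fold. In the other direction COL25A1 fell 8.07-fold. Of the 4 genes that held most collagen reads in WT cells, COL15A1 fell 2.11-fold, whereas COL18A1, COL6A5 and COL6A3 stayed under the 2-fold threshold.

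Collagens are secreted or membrane-bound proteins whose chains wind around each other in trimers, and each chain is made from its own gene. Fibrillar collagens form the fibres of skin, bone and tendon, type IV collagens form the sheet of basement membranes, and FACIT collagens (fibril-associated collagens with interrupted helices) coat or link the fibres. Transmembrane collagens stay anchored in the cell that makes them. The large producers of collagen are fibroblasts, osteoblasts, chondrocytes and, for type IV, epithelial and endothelial cells, whereas K562, an established leukaemia line with erythroid features, grows in suspension.

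Poly(A) RNA was sequenced in 6 libraries, 3 per group. In all cells endogenous EP400, the scaffold and ATPase subunit of the TIP60 chromatin complex, was homozygously fused to a degradation tag. All cells received 500 nM dTAGV-1, the molecule that triggers degradation of the tagged protein, for 24 h. The cells differed in the EP400 transgene placed at the AAVS1 locus: complete EP400 (WT) or EP400 without the SANT and HD domains, through which TRRAP is attached (Delta-TRRAP). Each complemented line was a clone edited from a single tagged clone, as the methods describe, so clone and genotype cannot be told apart. The 3 libraries of a line, which are biological replicates, do not measure the spread between clones.

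The libraries held 35076835 to 42616061 reads in genes. EP400 itself, which sums the tagged locus and the transgene, had normalized counts of 4951, 4924 and 5425 in WT and 5515, 6694 and 4350.1 in Delta-TRRAP, with an edgeR adjusted p of 0.354. These counts overlapped between the groups. The mitochondrial share of reads was 3.18% to 3.71% for WT libraries and 5.07% to 6.24% for Delta-TRRAP libraries, and its part in the collagen values was not tested. All 15 erythroid markers of K562 were expressed, although the cell type was labelled "Lymphoblast", and their normalized counts summed to between 243489 and 244774 per WT library and between 174556 and 176229 per Delta-TRRAP library. Of 8 lymphocyte markers the B cell gene MS4A1 had no read in any library, and the list summed to between 16377 and 17049 in WT, against 4158 to 4599 in Delta-TRRAP. Fibroblast markers are given with the fibrillar collagens.

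A normalized count is a read count divided by the relative size of its library after TMM scaling, and a positive log2 fold change means higher in Delta-TRRAP. Testing was done with edgeR on genes whose normalized counts averaged 5 or more across all libraries. A gene was taken to rise or fall when its p, adjusted by Benjamini-Hochberg over all 19114 genes tested, was at most 0.01 and its change at least 2-fold. Errors are standard deviations (SD, n = 3) for counts and standard errors (SE) for log2 fold changes. Because RNA was measured in bulk, fewer cells that transcribe a gene and less RNA per cell cannot be told apart.

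Of the 44 collagen genes, 42 had at least 1 read, and COL8A1 and COL17A1 had none, where the floor used here for a count of 0 was 3 reads per library. Reads were present for 37 genes in WT and 41 in Delta-TRRAP, and each WT library detected 30 to 31 of them, each Delta-TRRAP library 37 to 38. The filter left 26 collagen genes to test. Of these 14 (53.8%) rose, where 16.2% of all genes tested rose, and 2 (7.69%) fell, where 6.34% of all genes fell. By the adjusted p alone 20 of the 26 differed, against 58.6% of all genes, and 23 of the 26 showed no overlap between the libraries of either group, against 71.1% of all genes. The median log2 fold change was 1.08 over the 26 collagen genes, with a range of -3.01 to 8.92, and 0.01 over all genes tested.

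The filter favours genes that are high in one group. COL1A2, COL4A3, COL4A4 and COL4A6 passed it only through Delta-TRRAP, with WT means under 5. Among the 22 collagen genes that averaged 5 or more in both groups, 10 (45.5%) rose and 2 fell, where 11.5% of 17213 such genes rose and 6.10% fell. COL4A3 lay just inside the filter with a mean of 5.21, and COL3A1 just outside it with 4.98. Just inside the fold threshold were COL5A1 (2.07-fold higher) and COL15A1 (2.11-fold lower), and just outside it was COL9A3 (1.94-fold lower).

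**Figure D1:**
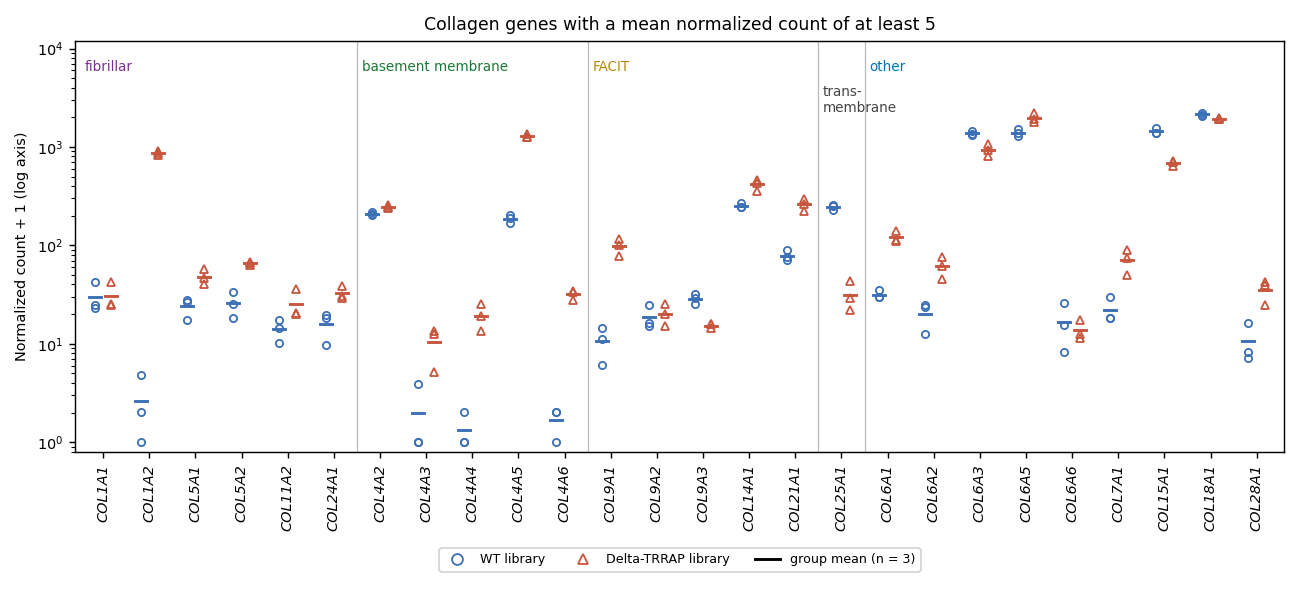
Normalized count plus 1 (log axis) of the 26 tested collagen genes in each of the 3 WT and 3 Delta-TRRAP libraries, with bars at the group means and genes grouped by class. COL1A2, COL4A4 and COL4A6 lie near 1 in WT and far above it in Delta-TRRAP, COL25A1 shows the opposite order, and COL18A1 and COL6A5 stay near the top of the plot in every library.

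The sequences shown here are the 250 bases before the RefSeq start sites (GRCh38.p14) of the type IV genes, which lie head to head in pairs, and of COL25A1, the gene with the largest fall. A pair of type IV genes shares the stretch between its start sites and is read in opposite directions, so the sequences allow the paired promoters to be seen beside how differently their genes were expressed. Capitals mark CCAAT or GGGCGG on either strand, the letters of the CCAAT box and the GC box. RefSeq start windows were matched for 32 of the 44 collagen genes, and none was matched for COL1A2. Of the start sites of COL4A6, the one nearest to COL4A5 is shown.
COL4A1, chr13:110307158-110307407, minus strand: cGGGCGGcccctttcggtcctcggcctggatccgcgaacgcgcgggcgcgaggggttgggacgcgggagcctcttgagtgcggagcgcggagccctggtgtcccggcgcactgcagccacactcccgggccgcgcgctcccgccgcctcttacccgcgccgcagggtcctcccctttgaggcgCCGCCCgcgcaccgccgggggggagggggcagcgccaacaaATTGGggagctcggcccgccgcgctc
COL4A2, chr13:110307034-110307283, plus strand: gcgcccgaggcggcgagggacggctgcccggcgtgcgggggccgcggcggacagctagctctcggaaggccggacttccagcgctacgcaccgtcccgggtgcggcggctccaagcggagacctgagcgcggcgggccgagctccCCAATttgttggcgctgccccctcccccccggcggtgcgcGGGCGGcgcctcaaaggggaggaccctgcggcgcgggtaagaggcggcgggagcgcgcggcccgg
COL4A3, chr2:227164374-227164623, plus strand: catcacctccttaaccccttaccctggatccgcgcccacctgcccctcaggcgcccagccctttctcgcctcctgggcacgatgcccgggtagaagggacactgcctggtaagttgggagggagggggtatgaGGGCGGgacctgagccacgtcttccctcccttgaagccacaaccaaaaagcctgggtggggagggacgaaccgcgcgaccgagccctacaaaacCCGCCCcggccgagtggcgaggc
COL4A4, chr2:227164206-227164455, minus strand: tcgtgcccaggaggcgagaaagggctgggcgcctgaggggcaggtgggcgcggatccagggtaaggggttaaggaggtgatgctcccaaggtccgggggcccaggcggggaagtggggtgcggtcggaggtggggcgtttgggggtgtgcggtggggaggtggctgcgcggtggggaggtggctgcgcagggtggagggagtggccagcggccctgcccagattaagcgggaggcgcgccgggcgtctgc
COL4A5, chrX:108439588-108439837, plus strand: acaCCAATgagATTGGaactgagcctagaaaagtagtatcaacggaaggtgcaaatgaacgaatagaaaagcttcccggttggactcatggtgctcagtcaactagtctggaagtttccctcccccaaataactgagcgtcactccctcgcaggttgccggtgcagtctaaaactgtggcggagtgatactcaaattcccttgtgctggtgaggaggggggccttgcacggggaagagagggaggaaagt
COL4A6, chrX:108439459-108439708, minus strand: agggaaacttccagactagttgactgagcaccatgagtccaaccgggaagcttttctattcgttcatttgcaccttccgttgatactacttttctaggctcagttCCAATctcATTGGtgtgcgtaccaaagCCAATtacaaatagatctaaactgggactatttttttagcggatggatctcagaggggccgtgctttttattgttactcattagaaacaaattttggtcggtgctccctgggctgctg
COL25A1, chr4:109302659-109302908, minus strand: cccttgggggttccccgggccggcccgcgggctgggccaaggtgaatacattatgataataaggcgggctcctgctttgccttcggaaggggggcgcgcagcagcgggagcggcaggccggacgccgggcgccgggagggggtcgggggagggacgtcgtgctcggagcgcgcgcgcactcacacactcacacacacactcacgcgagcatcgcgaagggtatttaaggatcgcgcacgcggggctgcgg

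The start sites lay 127 bp apart for COL4A1 and COL4A2, 419 bp for COL4A3 and COL4A4, and 380 bp for COL4A5 and COL4A6. The COL4A1 and COL4A2 windows were rich in G and C (77.6% and 78.8%), and those of COL4A5 and COL4A6 were poorer (51.2% and 44%). CCAAT was found 2 times in the COL4A5 window and 3 times in the COL4A6 window, and not in those of COL4A3 and COL4A4. The COL4A5 and COL4A6 windows overlap, so the 2 sites of COL4A5 are also among the 3 of COL4A6. The COL4A6 window that is not shown held no CCAAT. The COL25A1 window held 32 CpG sites and had 70.0% G and C. Over all 44 windows of the 32 collagen genes, 12 windows (27.3%) held CCAAT, against 32% of 34943 windows of all genes, and 24 (54.5%) held GGGCGG, against 42.5%. TATAAA was present in 8 collagen windows (18.2%), against 10.8%, and CACGTG in 0, against 6.32%. All motifs were sought on both strands. The median G and C content was 64.2% for the collagen windows and 58.0% for all windows.

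Of the 6 type IV genes 5 were tested, 4 rose (80.0%, against 16.2% of all genes tested) and none fell. The median log2 fold change was 3.11 over the 5. For 3 of the rises the WT mean was under 5, and COL4A5 and COL4A2 were the type IV genes that averaged 5 or more in both groups. The summed normalized counts of the class were 408, 372 and 408 in the WT libraries and 1591, 1634 and 1561 in the Delta-TRRAP libraries. The groups were far apart, and most of the difference lay in COL4A5.

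COL4A5 (ENSG00000188153.13, chromosome X, 108439838 to 108697545, plus strand) encodes the alpha 5 chain, which is mutated in X-linked Alport syndrome. COL4A5 had normalized counts of 187, 168 and 200.2 in the WT libraries and 1263, 1341 and 1264 in the Delta-TRRAP libraries. Every Delta-TRRAP library was above every WT library, and the means were 185 ± 16.3 in WT and 1289 ± 44.6 in Delta-TRRAP. For COL4A5 the log2 fold change was 2.80 ± 0.07, with an edgeR adjusted p of 8.00e-14. Its partner across the shared promoter, COL4A6 (ENSG00000197565.15, chromosome X, 108155607 to 108439497, minus strand), encodes the alpha 6 chain, which assembles with alpha 5 in some basement membranes. COL4A6 had normalized counts of 1.02, 0 and 1.03 in the WT libraries and 33.2, 26.7 and 32.7 in the Delta-TRRAP libraries. WT cells thus gave 2 reads in all against 93, a ratio of 46.0 with a 95% exact counting interval of 12.4 to 386, and the log2 fold change was 5.28 ± 0.50 (edgeR adjusted p 1.57e-07). Both genes of the pair rose, but not to similar levels: per length of exon COL4A5 was 29.7 to 39.2 times as abundant as COL4A6 in the Delta-TRRAP libraries.

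COL4A3 (ENSG00000169031.19, chromosome 2, 227164624 to 227314792, plus strand) and COL4A4 (ENSG00000081052.12, chromosome 2, 227002714 to 227164453, minus strand) encode the alpha 3 and alpha 4 chains, which join alpha 5 in the basement membrane of the kidney glomerulus. COL4A4 had normalized counts of 1.02, 0 and 0 in the WT libraries and 24.4, 12.4 and 18 in the Delta-TRRAP libraries. A single WT read stood against 55 reads in Delta-TRRAP, a ratio of 54.5 (95% exact counting interval 9.38 to 2189.6), and the log2 fold change was 5.32 ± 0.71 (edgeR adjusted p 7.34e-06). COL4A3 had normalized counts of 0, 2.89 and 0 in the WT libraries and 11.7, 12.4 and 4.22 in the Delta-TRRAP libraries. The libraries did not overlap, but the numbers were small, with 3 reads against 29, a ratio of 9.57 (interval 2.97 to 49.1), a log2 fold change of 3.11 ± 0.78 and an edgeR adjusted p of 0.00239. The call on COL4A3 was lost with DESeq2 (adjusted p 0.0110) and without WT replicate 1 (edgeR, 0.0141) or WT replicate 3 (edgeR, 0.0104), and the gene fell below the filter without Delta-TRRAP replicate 1 or 2. The fitted log2 fold changes were 6.27 for COL4A3 without WT replicate 2 and 7.20 for COL4A4 without WT replicate 1, where the WT libraries left held no read, so they are no bound.

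The pair of COL4A1 and COL4A2, whose chains form the type IV network of nearly all basement membranes, held no gene that passed both thresholds, unlike the other pairs. COL4A2 had normalized counts of 218, 202 and 206 in the WT libraries and 254, 242 and 239.7 in the Delta-TRRAP libraries. The libraries did not overlap, but the log2 fold change was only 0.23 ± 0.09, with an edgeR adjusted p of 0.0290, which did not pass. COL4A1 had no read in WT and 5, 0 and 2 reads in Delta-TRRAP, and was not tested. With no filter its log2 fold change was 4.29 ± 1.69, with an edgeR adjusted p of 0.0290, which did not pass. K562 cells of both groups thus gave COL4A2 reads with few or no COL4A1 reads, while the RefSeq start sites of the genes lie 127 bp apart. The start site that the COL4A2 reads came from was not tested.

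**Figure D2:**
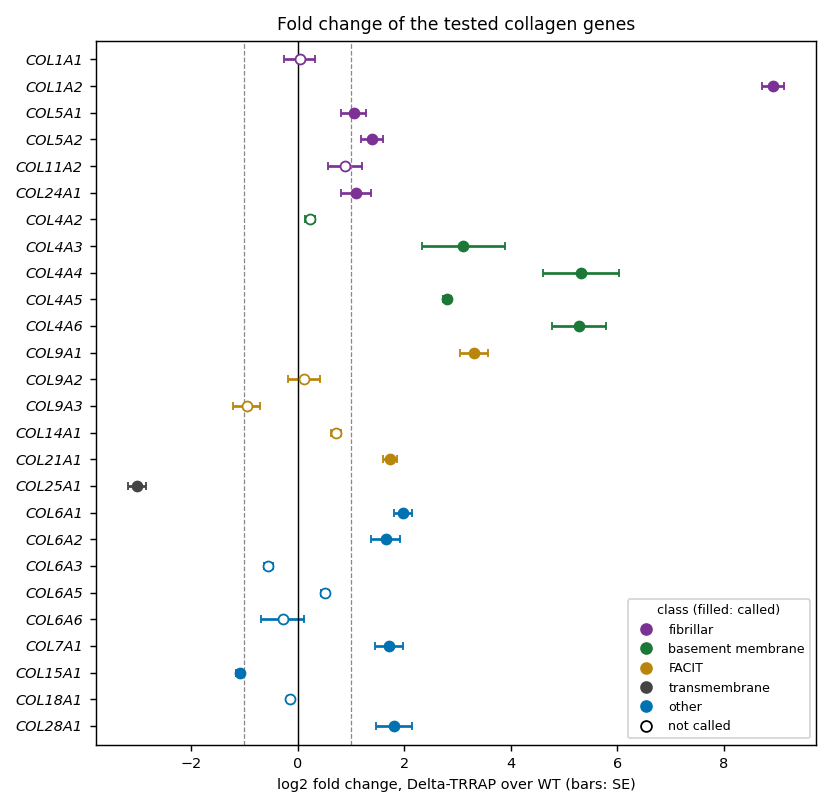
Log2 fold change (Delta-TRRAP over WT) with its standard error for the 26 tested collagen genes by class, where filled points passed both thresholds and open points did not. Dashed lines mark the 2-fold threshold, and COL1A2 at 8.92 and COL25A1 at -3.01 are the extremes.

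Fibrillar collagens were low in WT cells, where the class summed to 109.6, 82.9 and 133 normalized counts, and reached 1061, 1111 and 1068 in the Delta-TRRAP libraries. Of 11 genes 6 were tested, 4 rose (66.7%, against 16.2% of all genes tested) and none fell. COL1A2 (ENSG00000164692.17, chromosome 7, 94394895 to 94431227, plus strand) encodes the alpha 2 chain of type I collagen, the main collagen of bone and skin. COL1A2 had normalized counts of 1.02, 3.86 and 0 in the WT libraries and 867, 904 and 832 in the Delta-TRRAP libraries. The means were 1.63 ± 2.0 in WT and 868 ± 36.1 in Delta-TRRAP, and the groups were nowhere near each other. For COL1A2 the log2 fold change was 8.92 ± 0.20, with an edgeR adjusted p of 1.81e-14. Since WT held only 5 reads, the size of the rise is imprecise: the ratio of reads was 519 with a 95% exact counting interval of 222 to 1600.5, and the log2 fold change ran from 8.36, without WT replicate 3, to 10.40, without WT replicate 2.

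COL1A1 (ENSG00000108821.13, chromosome 17, 50184101 to 50201632, minus strand) encodes the alpha 1 chain, which is the more numerous chain in type I collagen trimers. COL1A1 had normalized counts of 23.6, 22.2 and 41.1 in the WT libraries and 24.4, 23.9 and 41.2 in the Delta-TRRAP libraries. The groups overlapped, and the log2 fold change was 0.04 ± 0.29 with an edgeR adjusted p of 0.918. The direction of this value turned when WT replicate 1 or 2 or Delta-TRRAP replicate 3 was left out. Per length of exon COL1A2 was 0 to 0.145 times COL1A1 in the WT libraries and 16.8 to 31.6 times COL1A1 in the Delta-TRRAP libraries. COL1A2 therefore came to exceed COL1A1 in all 3 Delta-TRRAP libraries, opposite to the proportion of their chains in the protein.

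Type V collagen, which is built into type I fibres and sets their width, rose in both of its tested chains. COL5A1 (ENSG00000130635.15, chromosome 9, 134641803 to 134844843, plus strand) had normalized counts of 25.6, 16.4 and 26.7 in the WT libraries and 45.9, 56.3 and 39.1 in the Delta-TRRAP libraries. COL5A2 (ENSG00000204262.14, chromosome 2, 189031898 to 189225312, minus strand) had 24.6, 17.4 and 32.8 in the WT libraries and 62.6, 66.9 and 65.5 in the Delta-TRRAP libraries. For each gene the groups did not overlap, and the libraries were closer together for COL5A2. The log2 fold changes were 1.05 ± 0.23 for COL5A1 (edgeR adjusted p 0.000955) and 1.39 ± 0.21 for COL5A2 (edgeR adjusted p 2.89e-05). COL5A1 lost the 2-fold threshold without WT replicate 2 (log2 fold change 0.84) or Delta-TRRAP replicate 2 (0.90). Per length, COL5A1 stood at 0.533 to 0.683 times COL5A2 in WT and 0.391 to 0.553 times in Delta-TRRAP, ranges that overlap.

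COL24A1 (ENSG00000171502.15, chromosome 1, 85729233 to 86156943, minus strand), a minor fibrillar collagen of developing bone and cornea, had normalized counts of 18.4, 8.68 and 17.4 in the WT libraries and 28.3, 29.6 and 38.0 in the Delta-TRRAP libraries. The groups did not overlap, with a log2 fold change of 1.10 ± 0.28 and an edgeR adjusted p of 0.00288. This call was lost with DESeq2 (adjusted p 0.0183), without WT replicate 2 (edgeR, 0.0180) and without Delta-TRRAP replicate 3 (edgeR, 0.0111). COL11A2, a type XI chain of cartilage, had counts of 16.4, 13.5 and 9.24 in the WT libraries and 19.6, 19.1 and 34.9 in the Delta-TRRAP libraries. These did not overlap either, but the edgeR adjusted p of 0.0245 did not pass.

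The remaining fibrillar genes were too low to test. COL3A1, the collagen of skin and vessel walls that accompanies type I, had 0, 0 and 2 reads in WT and 9, 10 and 9 in Delta-TRRAP, which put it just under the filter. With no filter its log2 fold change was 3.57 ± 0.77, with an edgeR adjusted p of 1.43e-05. COL2A1, the main collagen of cartilage, had 2 reads in WT and 3 in Delta-TRRAP over the 3 libraries, and COL5A3, COL11A1 and COL27A1 had 8 reads or fewer in either group.

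Fibroblast markers were examined beside the fibrillar collagens. Of 15 such genes PDGFRA, LUM, TWIST2 and TCF21 had no read in any library, and 7 averaged 5 normalized counts or more. Of these PDGFRB, POSTN and FN1 rose, and S100A4 and FBN1 fell. PDGFRB and POSTN passed the filter only through Delta-TRRAP. They had 5 and 0 reads in WT and 28 and 50 in Delta-TRRAP. The list summed to between 13765 and 14634 in WT, against 36416 to 38075 in Delta-TRRAP, a sum held mostly by VIM and FN1. FN1 (fibronectin) rose from 667 ± 45.9 to 11952 ± 1846, and VIM (vimentin) had means of 12936 ± 397 and 25226 ± 1032, with a log2 fold change of 0.96 that stayed under the fold threshold. The summed level of 8 endothelial markers ran from 689 to 699 over the WT libraries and from 420.3 to 487 over the Delta-TRRAP libraries, a sum that was mostly PECAM1 (means of 679.7 and 397). The endothelial receptor gene TEK rose, from 7 reads in WT to 102 in Delta-TRRAP (edgeR adjusted p 3.91e-07), and the untested markers KDR, VWF and ERG had 0, 1 and 2 reads in WT and 17, 10 and 18 in Delta-TRRAP. The part of these markers in the collagen values was not tested.

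**Figure D3:**
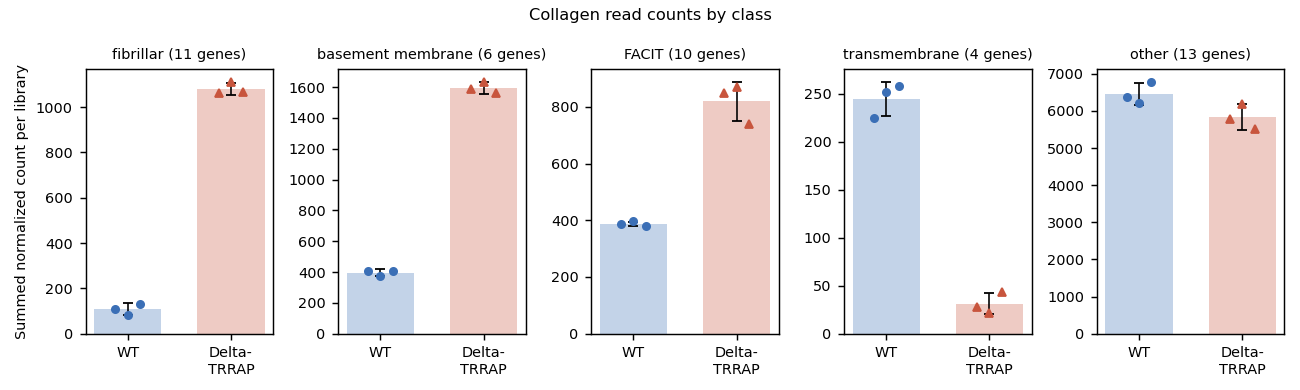
Summed normalized counts of each collagen class, 1 panel per class with its own axis from 0, where points are libraries, bars are group means (n = 3) and whiskers are SD. Fibrillar, basement membrane and FACIT sums are higher in all 3 Delta-TRRAP libraries than in any WT library, the transmembrane sum is lower, and the ranges of the remaining collagens nearly meet.

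FACIT collagens summed to 386, 396 and 381 in the WT libraries and 848, 869 and 740.3 in the Delta-TRRAP libraries. Of 10 genes 5 were tested, 2 rose (40.0%, against 16.2% of all genes tested) and none fell. COL9A1 (ENSG00000112280.16, chromosome 6, 70216040 to 70303084, minus strand), a chain of the type IX collagen that coats cartilage fibrils, had normalized counts of 10.2, 13.5 and 5.13 in the WT libraries and 99.7, 76.4 and 116 in the Delta-TRRAP libraries. All Delta-TRRAP libraries were well above WT, with a log2 fold change of 3.31 ± 0.27 and an edgeR adjusted p of 3.53e-08. The other type IX chains did not move with it. COL9A2 had counts of 14.3, 15.4 and 23.6 in the WT libraries and 24.4, 14.3 and 19.0 in the Delta-TRRAP libraries, with an edgeR adjusted p of 0.749, and the groups overlapped. COL9A3 had counts of 24.6, 28.0 and 30.8 in the WT libraries and 14.7, 13.4 and 14.8 in the Delta-TRRAP libraries. It was lower in every Delta-TRRAP library, with a log2 fold change of -0.96 ± 0.25 and an edgeR adjusted p of 0.00308, which passed the adjusted p but not the fold threshold. Per length the ratio of COL9A1 to COL9A3 went from 0.0781 to 0.226 in WT up to 2.68 to 3.68 in Delta-TRRAP.

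COL21A1 (ENSG00000124749.17, chromosome 6, 56056590 to 56394094, minus strand), a FACIT collagen found in vessel walls, had normalized counts of 88.1, 70.4 and 74.9 in the WT libraries and 262, 297 and 221 in the Delta-TRRAP libraries. The groups were separate, with a log2 fold change of 1.74 ± 0.13 and an edgeR adjusted p of 1.76e-08. COL14A1, a collagen of tendon and skin, had counts of 246, 266 and 243 in the WT libraries and 430.1, 458 and 357 in the Delta-TRRAP libraries. These too were separate and passed the adjusted p (7.74e-06 by edgeR), but at a log2 fold change of 0.72 ± 0.10 COL14A1 stayed under the fold threshold. Among the FACIT genes that were not tested, COL16A1 had 1 read in WT and 13 in Delta-TRRAP, and COL19A1 had 4 and 14. With no filter COL16A1 had a log2 fold change of 3.27 and an edgeR adjusted p of 0.00878. COL12A1, COL20A1 and COL22A1 had 5 reads or fewer in either group.

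Of the 4 transmembrane collagens only COL25A1 had enough reads to test. COL25A1 (ENSG00000188517.16, chromosome 4, 108808725 to 109302752, minus strand) encodes a collagen of neurons and developing muscle whose shed part binds amyloid. COL25A1 had normalized counts of 225, 251 and 258 in the WT libraries and 28.3, 21.0 and 42.2 in the Delta-TRRAP libraries. No Delta-TRRAP library came near the WT range, and the means were 245 ± 17.0 in WT and 30.5 ± 10.8 in Delta-TRRAP. For COL25A1 the log2 fold change was -3.01 ± 0.17, with an edgeR adjusted p of 4.44e-10, the largest fall among the collagens. COL13A1 and COL23A1 had 1 read or none in each group.

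The remaining collagens include the most abundant ones in these cells. They summed to 6380.0, 6201 and 6779.8 in the WT libraries and 5778, 6196 and 5504 in the Delta-TRRAP libraries. Of 13 genes 9 were tested, 4 rose (44.4%, against 16.2% of all genes tested) and 1 fell (11.1%, against 6.34%). COL18A1, COL6A5, COL6A3 and COL15A1 together held 83.5% to 83.8% of all collagen reads in the WT libraries and 57.8% to 59.9% in the Delta-TRRAP libraries. Over all 44 genes the summed normalized counts were 7509, 7304 and 7959 in WT and 9306, 9832 and 8917 in Delta-TRRAP.

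COL15A1 and COL18A1 are the multiplexins, basement membrane collagens that carry sugar chains and release the fragments restin and endostatin. COL15A1 (ENSG00000204291.11, chromosome 9, 98943179 to 99070792, plus strand) had normalized counts of 1382, 1383 and 1569 in the WT libraries and 711, 698 and 646 in the Delta-TRRAP libraries. It fell in Delta-TRRAP, from 1445 ± 108 to 685 ± 34.1, with a log2 fold change of -1.08 ± 0.07 and an edgeR adjusted p of 1.22e-09. The fall was close to the fold threshold and, at -0.92, missed it when libraries were scaled by their totals alone. COL18A1 had counts of 2221, 2065 and 2129 in the WT libraries and 1953, 1917 and 1901 in the Delta-TRRAP libraries. The libraries did not overlap, but the log2 fold change was -0.15 ± 0.05, with an edgeR adjusted p of 0.0137, and it was 0.00 with scaling by totals alone.

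Type VI collagen forms beaded filaments around cells, from a core of the alpha 1, alpha 2 and alpha 3 chains, with alpha 5 or alpha 6 able to take the place of alpha 3. COL6A1 (ENSG00000142156.14, chromosome 21, 45981770 to 46005050, plus strand) had normalized counts of 33.8, 28.9 and 28.7 in the WT libraries and 112, 109.8 and 138 in the Delta-TRRAP libraries. COL6A2 (ENSG00000142173.15, chromosome 21, 46098112 to 46132848, plus strand) had 22.5, 11.6 and 23.6 in the WT libraries and 45.0, 74.5 and 61.3 in the Delta-TRRAP libraries. Both rose with no overlap between groups, at log2 fold changes of 1.97 ± 0.17 (edgeR adjusted p 4.90e-08) and 1.65 ± 0.27 (edgeR adjusted p 5.10e-05).

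The longer chains of type VI moved less and in both directions. COL6A3 had counts of 1316, 1346 and 1454 in the WT libraries and 932, 1066 and 808 in the Delta-TRRAP libraries, and COL6A5 had 1369, 1302 and 1515 in the WT libraries and 1931, 2204 and 1803 in the Delta-TRRAP libraries. Neither pair of groups overlapped, and the log2 fold changes of -0.55 ± 0.08 for COL6A3 and 0.51 ± 0.07 for COL6A5 passed the adjusted p (edgeR, 2.06e-05 and 1.93e-05) but not the fold threshold. COL6A6 was low and overlapped between groups, with an edgeR adjusted p of 0.551. Per length the ratio of COL6A3 to COL6A1 went from 10 to 13 in WT to 1.5 to 2.5 in Delta-TRRAP, and that of COL6A5 to COL6A3 from 2.17 to 2.34 to 4.64 to 5.01. These ratios depend on the length used. With the longest transcript in place of merged exons COL6A3 stood at 15.5 to 20.2 times COL6A1 in WT and 2.33 to 3.87 times in Delta-TRRAP, and COL6A5 at 1.10 to 1.19 and 2.36 to 2.55 times COL6A3. The ratio of COL6A1 to COL6A2 was 1.17 to 2.41 for WT libraries and 1.42 to 2.41 for Delta-TRRAP libraries, ranges that overlap.

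COL7A1 (ENSG00000114270.17, chromosome 3, 48564073 to 48595329, minus strand), which forms the anchoring fibrils under skin, had normalized counts of 17.4, 17.4 and 28.7 in the WT libraries and 48.9, 72.6 and 87.7 in the Delta-TRRAP libraries. COL28A1 (ENSG00000215018.10, chromosome 7, 7356203 to 7535873, minus strand), a collagen found around peripheral nerve, had 7.17, 15.4 and 6.16 in the WT libraries and 23.5, 38.2 and 41.2 in the Delta-TRRAP libraries. Both rose and neither overlapped, at log2 fold changes of 1.71 ± 0.26 (edgeR adjusted p 2.88e-05) and 1.80 ± 0.34 (edgeR adjusted p 0.000250). Of the untested genes COL8A2, a collagen of the cornea, had 17 reads in WT and 4 in Delta-TRRAP, and COL10A1, the collagen of hypertrophic cartilage, had 0 and 7. COL26A1 had 3 and 7 reads.

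Levels of different genes were compared per length, as reads per kilobase of merged exons, scaled to the same library size. In WT COL18A1 was highest at 6.49 ± 0.238 (SD, n = 3), followed by COL15A1 at 5.58 ± 0.417, COL6A5 at 3.74 ± 0.292 and COL6A3 at 1.64 ± 0.0868. In Delta-TRRAP the order was COL18A1 at 5.84 ± 0.0813, COL6A5 at 5.31 ± 0.550, COL4A5 at 2.79 ± 0.0966, COL15A1 at 2.65 ± 0.132 and COL1A2 at 2.06 ± 0.0858. The libraries of COL18A1 and COL6A5 overlapped there, as did those of COL4A5 and COL15A1, so by merged exons these neighbours did not differ beyond their spread. A per-length level of at least 0.1 was reached by 12 collagen genes in WT and 17 in Delta-TRRAP. These levels depend on the length used: with the longest transcript in place of merged exons the counts were 14 and 21, and COL6A3 stood at 3.35 in WT beside 3.89 for COL6A5. The order in Delta-TRRAP changed too. By the longest transcript COL18A1 stood at 7.51, COL6A5 at 5.51, COL4A5 at 5.07, COL1A2 at 3.72 and COL15A1 at 3.25.

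To see whether the genes around a collagen gene moved as well, each was set beside its neighbours. The neighbours were the other tested genes within 2 Mb, collagen genes included. For comparison, 16.2% of all genes tested rose and 6.34% fell. Around COL9A1 12 neighbours had a median of -0.01 and none rose, and around COL21A1 11 neighbours had a median of 0.04 and none rose or fell. Around COL1A2 the median of 31 neighbours was 0.70 and 12 rose. The non-coding gene AC002074.2, 47832 bp from COL1A2, had a log2 fold change of 6.88 (edgeR adjusted p 1.73e-05), whereas CASD1 on the other side had -0.12 (edgeR adjusted p 0.0980).

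The type VI genes COL6A1 and COL6A2 lay in a region of chromosome 21 where 14 of 48 and 14 of 47 neighbours rose, with a median of 0.29 for each. They lie 93062 bp apart, so their neighbours were largely the same genes. COL18A1, in the same region, had 15 of 54 neighbours that rose, but its own log2 fold change was -0.15. COL9A3 lay in the opposite setting: 16 of its 57 neighbours on chromosome 20 fell, where 6.34% of all genes tested fell. The median of these neighbours was -0.72, and the COL9A3 value differed from it by only -0.23. The type IV pairs lay above the medians around them, which rested on few genes. COL4A3 had 7 neighbours with quartiles of 0.22 to 2.79, not far below its own 3.11. Next to COL4A4 lies RHBDD1, with a log2 fold change of 0.44, and next to COL4A3 lies MFF, with 0.29. COL4A6 ends 936 bp from ATG4A, which had a log2 fold change of 1.01.

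**Figure D4:**
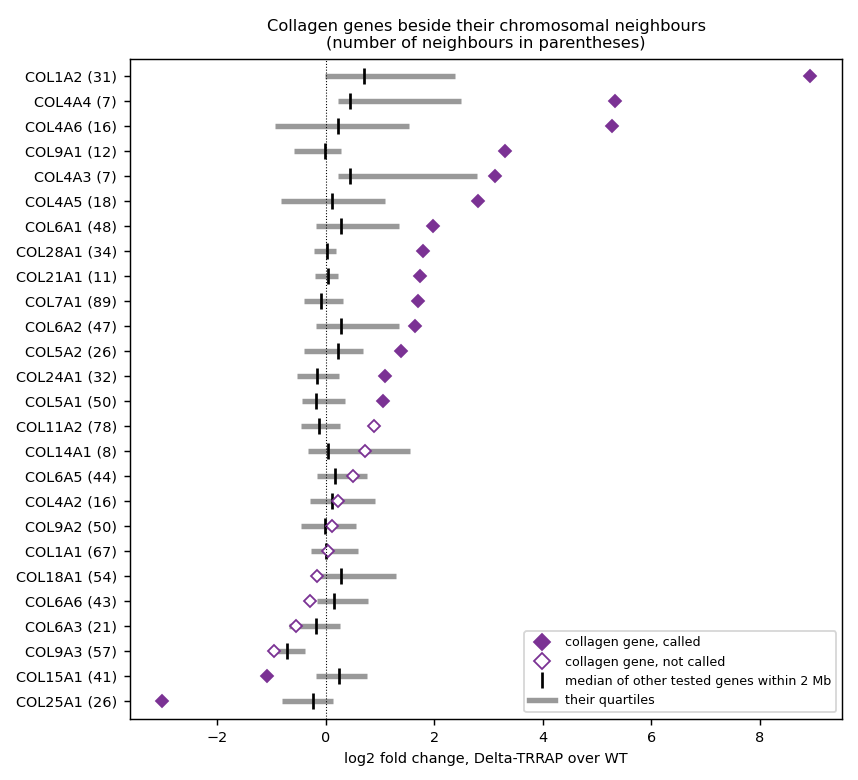
Log2 fold change of each tested collagen gene (diamonds, filled where both thresholds passed) beside the median (tick) and quartiles (grey bar) of the other tested genes within 2 Mb. COL1A2, COL4A4, COL4A6 and COL9A1 stand far above the quartiles of the genes around them, COL25A1 stands below, and COL9A3 lies near the lowered median of its region.

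The genes that build, bind and degrade collagen were counted from a list of 59, of which 48 were tested. On this list 7 genes (14.6%) rose, near the 16.2% of all genes tested, and 5 (10.4%) fell, where 6.34% of all genes fell. The median log2 fold change was -0.12. Of the 7 rises 4 had a WT mean under 5. Among the 43 genes that averaged 5 or more in both groups 3 rose and 4 fell, where 11.5% of 17213 such genes rose and 6.10% fell. The enzymes that hydroxylate and glycosylate collagen chains in the endoplasmic reticulum included no rise: of 13 tested none rose and 3 fell. By the adjusted p alone 10 were lower and none higher, where 28.9% of all genes tested were lower and 29.6% higher. COLGALT2, a galactosyltransferase for hydroxylysine, had a log2 fold change of -1.79 ± 0.07 (edgeR adjusted p 3.56e-12), and P3H4, a partner of lysyl and prolyl hydroxylases, had -1.36 ± 0.15 (edgeR adjusted p 1.31e-06). PLOD2, the lysyl hydroxylase of collagen telopeptides, had -1.84 ± 0.52 (edgeR adjusted p 0.00546), a call lost with DESeq2 and without WT replicate 2, Delta-TRRAP replicate 1 or Delta-TRRAP replicate 3.

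Of the 14 genes of collagen folding and export, all were tested, none rose and 2 fell (14.3%, against 6.34% of all genes tested). SERPINH1, the chaperone HSP47 that binds folded procollagen, had normalized counts of 11978, 11900.3 and 11881 in the WT libraries and 3484, 3223 and 3243 in the Delta-TRRAP libraries. It fell in every Delta-TRRAP library, with means of 11920.0 ± 51.5 in WT and 3317 ± 145 in Delta-TRRAP, a log2 fold change of -1.85 ± 0.05 and an edgeR adjusted p of 1.32e-13. FKBP10, a prolyl isomerase of the same compartment, had a log2 fold change of -1.44 ± 0.42 (edgeR adjusted p 0.00633), a call lost with DESeq2 and without WT replicate 1, WT replicate 3, Delta-TRRAP replicate 1 or Delta-TRRAP replicate 2.

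Genes that act outside the cell or at its surface moved in both directions. Of 8 tested genes that remove propeptides or cross-link fibres, the lysyl oxidases LOXL2 and LOXL4 rose, at log2 fold changes of 1.99 ± 0.20 and 1.93 ± 0.18 (edgeR adjusted p 3.42e-07 and 1.68e-07), and none fell, while PCOLCE, which enhances propeptide removal, was lower by the adjusted p alone (log2 fold change -0.60 ± 0.12, edgeR adjusted p 0.000334). Of 8 tested receptors 3 rose (37.5%, against 16.2% of all genes tested) and none fell, and 2 of the rises, ITGA1 and ITGA2, had WT means under 5. By the adjusted p alone 5 receptors were higher and 2 lower, where 29.6% of all genes tested were higher and 28.9% lower. The lower ones were ITGB1, the partner chain of the collagen-binding integrins (-0.54 ± 0.06), and GP6, the collagen receptor of platelets (-0.64 ± 0.19). ITGA2, an integrin chain that binds collagen, had a log2 fold change of 2.81 ± 0.35 (edgeR adjusted p 4.10e-06), and MRC2, which takes up collagen fragments, rose from 558 ± 27.6 to 1206 ± 37.9 (edgeR adjusted p 3.04e-10). ITGA1, the integrin chain that prefers type IV collagen, had 4 reads in WT and 47 in Delta-TRRAP, and the ratio of reads was 11.6 with a 95% exact counting interval of 4.25 to 44.5 (edgeR adjusted p 4.76e-05).

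All 5 tested genes of collagen degradation were higher by the adjusted p, where 29.6% of all genes were. Of them 2 (40.0%, against 16.2% of all genes tested) rose, MMP13 and MMP2, both with WT means under 5. MMP13, a collagenase, had normalized counts of 4.10, 3.86 and 3.08 in the WT libraries and 50.8, 57.3 and 52.8 in the Delta-TRRAP libraries. The groups were separate, with a log2 fold change of 3.82 ± 0.29 and an edgeR adjusted p of 1.22e-08. MMP2, a gelatinase, had 2 reads in WT, and the ratio of reads was 34.2 with an interval of 9.11 to 288 (edgeR adjusted p 7.83e-07).

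**Figure D5:**
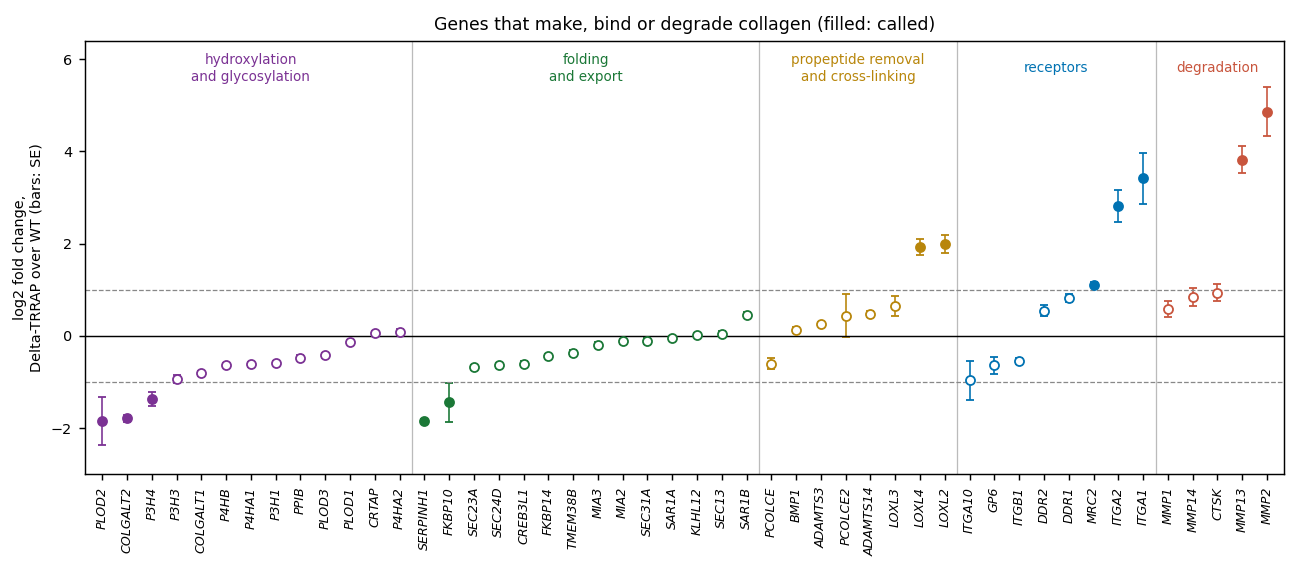
Log2 fold change (Delta-TRRAP over WT) of the 48 tested genes that modify, fold, process, bind or degrade collagen, grouped by role, with standard errors as bars and filled points where both thresholds passed. Most points for the intracellular roles lie below 0, and all 5 points for degradation lie above it.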

How the data were processed

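The authors deposited unnormalized counts of reads per gene, 1 table per library: STAR placed unique reads on hg38, and HTSeq 2.0.2 assigned them to GENCODE 32 genes (reverse-stranded, union mode). Unique mapping lowers the values of genes that have close copies. The tables of normalized signal and of the authors' own fold changes and p-values were not used, nor were 3 columns from another condition.

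The test was that of edgeR 4.0.16 under R 4.3.3 (TMM, quasi-likelihood F test, group as the only term, Benjamini-Hochberg adjustment). The thresholds were those of the study, which used DESeq2. Alternatives were DESeq2 1.42.0, other scalings, filters and thresholds, a block for the replicate number, and each library left out in turn. Scripts were tested on simulated data. Counting intervals were exact binomial (SciPy 1.17.1) and, like floors, cover counting error only. Groups came from the sample titles. The collagen genes, the pathway and marker lists and the classes were chosen with earlier results of these data known, and the text names every tested collagen gene and every pathway gene that rose or fell. GENCODE 44 gave positions and lengths (GRCh38), and 19041 of 19114 tested genes matched. Same-strand genes that overlap collagen genes held 5 reads or fewer per group, but some opposite-strand genes held more. AC097662.1 over COL4A3 had 67 reads in WT and 248 in Delta-TRRAP (log2 fold change 1.87). TCFL5 over COL9A3 had 3020 and 1486 (-1.04), and SLC19A1 over COL18A1 had 4730 and 2599 (-0.88). AC015909.1 over COL1A1 had 67 and 120 (0.82), although COL1A1 itself stayed at 0.04. The part of opposite-strand reads in the collagen values was not tested. Replicates differed by 4.93 to 15.5 times the chi-square of counting alone, so each was a separate library.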

Additional observations from a re-analysis of the deposited data

How the results depend on the processing

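Depth limits the genes with few WT reads, whose rises are large but imprecise. The collagen count of 14 higher and 2 lower was 12 and 2 with DESeq2, and 10 and 2 among genes with a mean of at least 5 in both groups, an alternative chosen after seeing the data. It fell to 5 higher at a minimum mean of 50, which removes low genes. With scaling by library totals, which moved the median of all genes by 0.162 on the log2 scale, 16 were higher and 1 lower, and with the adjusted p alone 16 and 4. Leaving out single libraries gave 12 to 14 higher and 2 to 3 lower. The pathway counts of 7 higher and 5 lower became 2 and 3 at a minimum of 50, 15 and 20 with the adjusted p alone, 7 to 8 and 3 to 5 when single libraries were left out, 3 lower with DESeq2 and 15 lower at 1.5-fold. Over all genes 4307 changed, 1969 at a minimum of 50, 6802 at 1.5-fold and 11195 with the adjusted p alone. With the replicate number as a block 14 collagen genes were higher and 2 lower, and 4218 of all genes changed. The numbers did not pair the libraries (correlations of -0.0351 to -0.0108), and 0 of 6 libraries correlated best with its own number.

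Named genes gave 278 values with the same direction and call as reported, 9 that lost the call, 2 that gained it and 7 of opposite sign. These cover only fits that kept both thresholds and in which the gene was tested. Not counted were 9 collagen rises removed by a minimum mean of 50, and COL4A3 without Delta-TRRAP replicate 1 or 2. Also not counted were COL14A1 and COL9A3, gained at 1.5-fold and with the adjusted p alone, and COL6A5 and COL6A3, gained with the adjusted p alone. The sign turned for COL1A1 (range -0.25 to 0.35, with -0.10 and -0.14 also negative), COL9A2 (-0.10 to 0.35, with -0.03 also negative) and COL6A6 (-0.63 to 0.25) when a single library was left out, and for COL18A1 (0.00) with library totals, all genes that had not been called. COL9A3 was called lower without WT replicate 1 (-1.05, edgeR adjusted p 0.00424), and COL11A2 higher with library totals (1.04, edgeR adjusted p 0.00965). The cause of these changes was not tested.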

Other observations

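The collagen pseudogenes COL6A4P1 and COL6A4P2 were both expressed. COL6A4P2, which lies 71710 bp from COL6A5, rose from a mean normalized count of 15.8 ± 2.83 (SD, n = 3) to 43.9 ± 15.5, with a log2 fold change of 1.46 ± 0.29 and an edgeR adjusted p of 0.000355. COL6A4P1 had means of 25.4 ± 6.28 and 48.3 ± 11.6, and its log2 fold change of 0.93 ± 0.24 (edgeR adjusted p 0.00295) missed the fold threshold. Both resemble the longer type VI genes, and reads were counted only where they mapped uniquely, so these values are less certain than those of single-copy genes. The antisense genes COL4A2-AS1 and COL18A1-AS2 had 1 read or none in each group, and COL4A2-AS2, COL5A1-AS1 and COL18A1-AS1 had none. AC002074.1, on the strand opposite COL1A2, had 0 reads in WT and 34 in Delta-TRRAP.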
